A study of Mus musculus with 8 samples.

Results

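The RNA of pancreatic islets from wild-type mice was described here as a baseline, from the 4 wild-type libraries of a series of 8. The 4 libraries, named WT1 to WT4 after their labels, were chosen by genotype, and all 24469 rows of the count table were read in them. The islets came from 8-week-old C57BL/6 mice, 1 mouse to a library, and were picked by hand; the labels give no sex. The other libraries of the series, from mice that lack 4 small nucleolar RNAs of the Rpl13a gene, were not used. Total RNA was extracted with TRIZOL, treated with DNase and made into libraries with the SeqPlex kit, which amplifies randomly primed cDNA.

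Islets are the endocrine part of the pancreas. Beta cells, the most frequent islet cells in mice, make insulin and amylin, while alpha, delta and PP cells make glucagon, somatostatin and pancreatic polypeptide. Mice carry a pair of insulin genes, Ins1 and Ins2. The islets lie within exocrine tissue, whose acinar cells make digestive enzymes, so hand-picked islets can carry acinar cells along. In bulk RNA such as this, fewer cells of a type and less RNA per cell cannot be told apart.

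The promoters of 3 hormone genes are shown because these genes define the endocrine cell types of the islet, Ins1 for beta cells, Gcg for alpha cells and Sst for delta cells. Each is the RefSeq stretch from 250 bases before to 50 bases after the annotated start on build GRCm38.p6, written 5′ to 3′ on the strand of the gene. Ins1 lies at chr19:52264047-52264346 on the plus strand, Gcg at chr2:62483604-62483903 on the minus strand, and Sst at chr16:23890795-23891094 on the minus strand. Capitals mark 4 motifs searched on both strands: TAAT, the core bound by homeodomain proteins such as PDX1; CATCTG, an E-box; TATAAA, the core promoter box that TBP binds; and TGACGTCA, the cyclic AMP response element.
Ins1: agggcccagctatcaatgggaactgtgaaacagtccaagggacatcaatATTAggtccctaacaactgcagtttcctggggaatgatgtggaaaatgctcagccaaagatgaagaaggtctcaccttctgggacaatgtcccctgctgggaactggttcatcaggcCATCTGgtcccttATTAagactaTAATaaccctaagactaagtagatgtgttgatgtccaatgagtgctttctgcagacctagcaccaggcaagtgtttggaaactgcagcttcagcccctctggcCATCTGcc
Gcg: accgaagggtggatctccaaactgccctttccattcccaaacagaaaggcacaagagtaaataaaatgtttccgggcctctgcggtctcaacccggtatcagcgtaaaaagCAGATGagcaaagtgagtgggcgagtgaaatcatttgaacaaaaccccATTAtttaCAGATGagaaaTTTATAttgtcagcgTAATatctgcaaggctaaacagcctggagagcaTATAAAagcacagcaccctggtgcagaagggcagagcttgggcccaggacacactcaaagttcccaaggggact
Sst: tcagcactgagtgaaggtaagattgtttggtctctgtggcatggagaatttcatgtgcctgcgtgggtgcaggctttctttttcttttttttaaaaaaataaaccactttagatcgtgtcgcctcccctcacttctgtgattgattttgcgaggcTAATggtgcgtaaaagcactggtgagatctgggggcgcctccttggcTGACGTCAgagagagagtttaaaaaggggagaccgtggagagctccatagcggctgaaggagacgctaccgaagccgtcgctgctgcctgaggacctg
The Ins1 stretch held 3 TAAT and 2 CATCTG matches, and the Gcg stretch held 2 TAAT, 2 CATCTG and 2 TATAAA matches. The Sst stretch held 1 TAAT match and 1 TGACGTCA match. Among all 32841 RefSeq promoters of this length, 58.0% held TAAT, 17.2% held CATCTG, 13.6% held TATAAA and 1.79% held TGACGTCA. A match is a description of the letters and not evidence of binding. The annotated starts were not checked against the starts of transcription in islets. A motif absent from a stretch, such as TATAAA from that of Ins1, may therefore lie outside it. Promoters of 5 of the 6 hormone genes were matched by symbol, and that of Ins2 was not among them.

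Between 24.8 and 41.1 M counts were assigned to genes in a library. The rows of the ribosomal RNA precursor Rn45s, Lars2 and Mir6236 together took 42.0 to 44.2% of them and were left out of every total below, which left 14.4 to 23.6 M counts. A level is a count per 1000000 of these remaining counts (CPM), and 1 CPM stood for 14.4 to 23.6 counts. A count of 0 allowed a level of up to 0.127 CPM in WT1 and 0.208 in WT2, for counting error only. Of all 24469 rows, with Rn45s, Lars2 and Mir6236 among them, 15812 had a count in all 4 libraries and 4733 had none in any. Of the 24466 remaining genes, 12868 reached a mean level of 1 or more CPM, 7308 of 10 or more, 891 of 100 or more and 44 of 1000 or more.

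A few genes held most of the counts. By mean share, 2 genes (Ins2 and Ins1) together reached 25% of the counts, 14 genes reached 50%, 744 reached 75% and 3329 reached 90%. Of the 20 genes with the highest mean share, 15 were acinar enzyme genes, 4 were hormone genes and 1 was the nuclear noncoding RNA Malat1. Protein-coding genes took 97.7 ± 0.456% of the counts (SD, n = 4). Long intergenic noncoding RNAs took 1.38 ± 0.420%, led by Malat1 with levels of 6822, 13728, 8942 and 10563 CPM in WT1 to WT4. Small nucleolar RNAs took 0.000709% on average.

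The 6 hormone genes took 17.8, 41.9, 31.8 and 38.2% of the counts in WT1 to WT4, a mean of 32.4 ± 10.6% (SD, n = 4). WT1 was the lowest and WT2 the highest. The levels of Ins2 were 118051, 283692, 222830.0 and 257615 CPM. The levels of Ins1 were 46968, 106486, 75911 and 95292 CPM. Both insulin genes were lowest in WT1 and highest in WT2, with a coefficient of variation (CV, SD over mean) of 0.330 and 0.321. Iapp, which encodes amylin, had levels of 8686, 20458, 13128 and 19588 CPM and a CV of 0.361.

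The hormones of the other endocrine cells spread over the libraries in a similar order. Glucagon (Gcg) had levels of 3783, 6325, 5097 and 7439.7 CPM, lowest in WT1 and highest in WT4. Somatostatin (Sst) had levels of 675, 1225, 1004 and 1466 CPM, again lowest in WT1 and highest in WT4. Pancreatic polypeptide (Ppy) had levels of 289, 579, 289 and 424 CPM. Here WT1 and WT3 lay side by side, and WT2 was the highest.

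Within the hormone counts of a library the proportions varied less. Ins2 made up 67.8 ± 1.60% of the hormone counts, Ins1 25.1 ± 1.03%, Iapp 4.75 ± 0.435% and Gcg 1.80 ± 0.287% (SD, n = 4). Sst made up 0.343 ± 0.0456% and Ppy 0.126 ± 0.0312%. The CV of the Ins2 share was 0.0237, that of the Gcg share 0.160 and that of the Ppy share 0.249. A share of a total that Ins2 dominates varies little for Ins2 by construction, so these CVs do not rank the hormones by steadiness.

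Levels per kilobase of the longest protein-coding transcript put the hormone genes in the order Ins2, Ins1, Iapp, Gcg, Sst and Ppy in each of the 4 libraries. Ins2 stood at 240247 ± 79234 CPM per kilobase, Ins1 at 76426 ± 24541 and Iapp at 18433 ± 6649 (SD, n = 4). Gcg followed at 5203 ± 1449, Sst at 1515 ± 467 and Ppy at 790.3 ± 276. Neighbours in this order did not overlap in range, with 1 exception: the ranges of Sst and Ppy overlapped, although Sst was the higher in 4 of 4 libraries.

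Ratios within a library do not depend on its total. With the median annotated transcript length, Ins2 was 5.58, 5.92, 6.52 and 6.01 times as high as Ins1 per kilobase, a mean of 6.01 ± 0.388. The ratio was 3.13 ± 0.202 with the longest transcripts and 2.70 ± 0.175 in counts, so the spread over mice was small beside the effect of the length chosen. The annotation lists 478 bases for the median Ins2 transcript, 918 for the longest and 1062 for Ins1. Since the insulin genes are related in sequence, the authors' counting could also have split some reads between them. The ratio of Gcg to Sst per kilobase of the longest transcript was 3.71, 3.42, 3.37 and 3.36, with a CV of 0.0483. Sst over Ppy was less even, at 1.62, 1.47, 2.41 and 2.397.

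**Figure D1:**
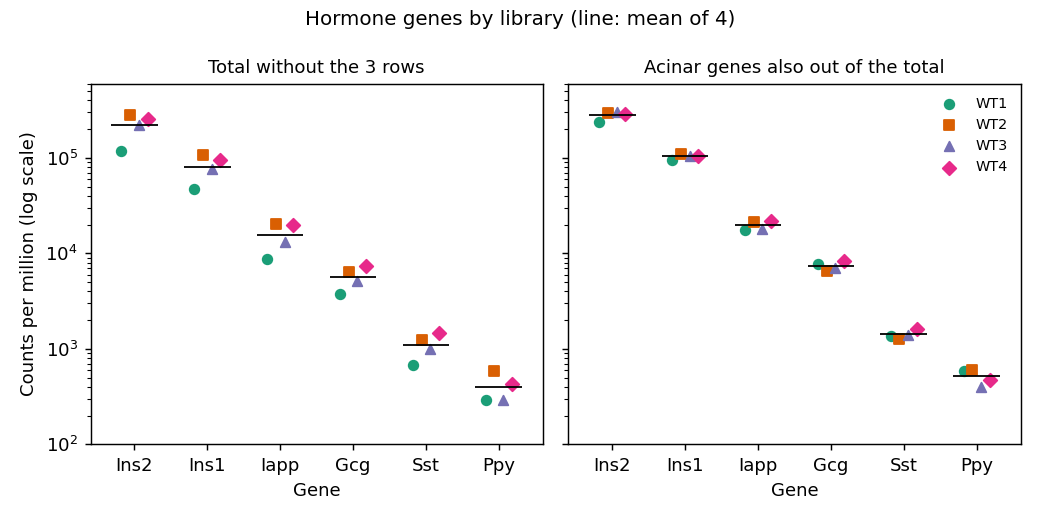
Counts per 1000000 (CPM, log axis) of the 6 hormone genes in WT1 to WT4, with the mean of 4 libraries as a line. The left panel uses the total without Rn45s, Lars2 and Mir6236, in which WT1 lies lowest for the insulin genes, Iapp, Gcg and Sst; in the right panel acinar genes are also out of the total and the points lie closer together.

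By mean share the acinar genes were second to the hormone genes among the gene lists, and their amount differed widely. The 49 acinar genes found in the table took 50.9, 3.85, 27.2 and 9.60% of the counts in WT1 to WT4, a 13.2-fold range. Amy2a5, a pancreatic amylase, had levels of 181428, 12929, 85063 and 33310.0 CPM and exceeded Ins2 in WT1, where it was the gene with the most counts. The levels of Prss2, a trypsinogen, were 27724, 2138, 18454 and 5097 CPM. The levels of the lipase gene Pnlip were 26477, 2065, 14449 and 4564 CPM. WT1 was highest, then WT3, WT4 and WT2, and 37 of the 40 acinar genes with a mean of 10 or more CPM followed this order. The order was read from these same genes. Of the 40, 39 were highest in WT1 and 39 lowest in WT2. Among 7268 genes outside the list at that level, 2.05% were highest in WT1 and 2.63% lowest in WT2.

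Most acinar genes kept their proportions to each other far better than their levels. As a share of the acinar counts, Amy2a5 stood at 35.6, 33.5, 31.3 and 34.7%, and the kallikrein Klk1 at 0.801, 0.808, 0.790 and 0.814%. The median CV of these shares over the 40 genes was 0.117, against 0.917 for their levels. The trypsinogen Try5 departed from this, with 4.13, 3.85, 4.35 and 1.64% of the acinar counts, lowest in WT4. Regenerating protein Reg1, at 0.360, 0.263, 0.139 and 0.360%, was lowest in WT3. Nr5a2 had the largest CV of its share among the 40 genes, 0.767, above the 0.711 of its level. Bhlha15 (Mist1), a transcription factor of secretory cells, did not follow the enzymes: its levels were 76.5, 33.3, 75.4 and 75.6 CPM, alike in 3 libraries and lower in WT2. Trypsinogen and amylase genes form families of similar sequence, and Amy2a2, Amy2a3 and Amy2a4 had equal values in every library, so single-gene values in these families are uncertain.

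**Figure D2:**
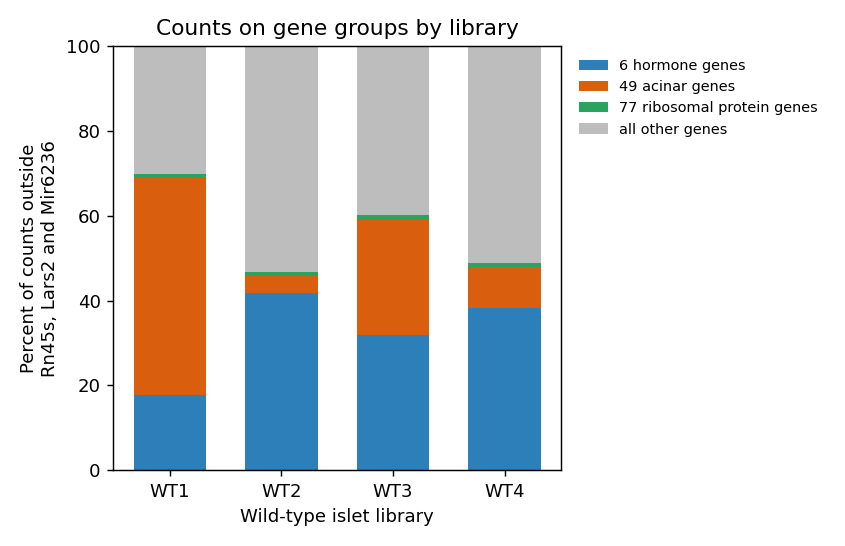
Percent of the counts outside Rn45s, Lars2 and Mir6236 taken by the 6 hormone genes, the 49 acinar genes, the 77 ribosomal protein genes and all others, as stacked bars for WT1 to WT4. Acinar genes take 50.9% in WT1 and 3.85% in WT2, while the ribosomal protein genes form a thin band of 1.03 to 1.08%.

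Because 1 group of genes took between 3.85 and 50.9% of the total, the spread of every other gene was measured on 2 scales, with acinar genes in the total and with them out of it. Among 7268 genes outside the acinar list with a mean of 10 or more CPM, the median CV was 0.274 with them in and 0.130 with them out. A CV below 0.1 was found for 225 genes with them in and for 2292 with them out. In the first scaling 89.6% of the genes were lowest in WT1, and 56.2% were highest in WT2. In the second scaling 19.5% were lowest in WT1 and 48.2% were highest there. The gene order was similar in all pairs of libraries: over 7308 genes, Spearman's rho lay between 0.913 and 0.967, as a description across genes, which are not independent. An SD from 4 values is itself imprecise, with a 95% interval of 0.566 to 3.73 times its value under a normal distribution.

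**Figure D3:**
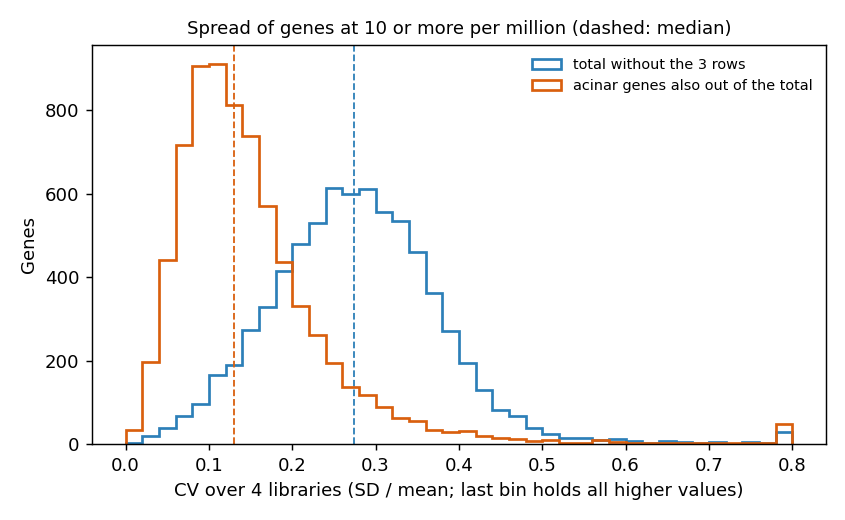
Number of genes by CV over the 4 libraries for 7268 genes with a mean of 10 or more CPM, with dashed lines at the medians. With acinar genes out of the total the median falls from 0.274 to 0.130.

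With acinar genes out of the total, the hormone genes took 36.4, 43.6, 43.7 and 42.2% of the counts, a mean of 41.5 ± 3.47%. The levels of Ins2 then were 240542, 295064, 306087 and 284974 CPM, with a CV of 0.102, and those of Ins1 95703, 110754, 104274 and 105412, with a CV of 0.0599. WT1 was still the lowest library for both insulin genes and for Iapp, by less than before. The other hormones did not keep WT1 as the lowest library. Gcg was lowest in WT2, at 6579 CPM against 7708 in WT1, and Sst was lowest in WT2, at 1274 against 1375. Ppy was lowest in WT3, at 396 CPM against 590 in WT1. The CV of each of the 6 hormone genes was smaller on this scale.

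Genes of the secretory granule were the next list by mean share, although in WT1 the ribosomal protein genes took more. Chromogranins and secretogranins (Chga, Chgb, Scg2, Scg3 and Scg5) build the granule, PCSK1 and PCSK2 cut the prohormones, and carboxypeptidase E (Cpe) trims the ends. All 21 genes on this list were in the table, 19 of them with a mean of 10 or more CPM, and together they took 0.952 to 2.05% of the counts. The highest per kilobase was Scg2, at 1359 ± 371 CPM per kilobase, with levels of 2129, 4183, 3342 and 4019.9 CPM. Its CV fell from 0.273 to 0.0263 with acinar genes out of the total, among the smallest of the group. Chga had levels of 1261, 2975, 2446 and 3252 CPM. Pcsk2 had levels of 1538, 3456, 2485 and 2955 CPM, and per kilobase of the longest transcript it was 10.03, 12.3, 11.2 and 10.3 times as high as Pcsk1. The zinc transporter gene Slc30a8, whose product loads zinc into insulin granules, had levels of 253, 547, 321 and 486 CPM. Least alike over the libraries was Pcsk1n, an inhibitor of PCSK1, with levels of 72.2, 214, 135 and 223 CPM.

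Beta-cell identity genes were present throughout. Of 29 on the list, 28 had a mean of 10 or more CPM; the exception was Nptx2, at 0.637, 1.53, 1.12 and 0.985 CPM. The hormone urocortin 3 (Ucn3), a marker of mature beta cells, had levels of 288, 717, 521 and 798 CPM. The levels of Slc2a2, the GLUT2 glucose transporter, were 256, 572, 354 and 504 CPM. G6pc2, an islet glucose-6-phosphatase subunit, had levels of 587, 807, 482 and 900.3 CPM, with WT3 below WT1. The median CV of the 28 genes was 0.357, and 0.136 with acinar genes out of the total. WT1 was the lowest library for 27 of the 28 genes on the first scale, against 89.6% of all genes. On the second scale it was the lowest for 12, against 19.5% of all genes.

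Transcription factors of the islet were expressed at lower levels per kilobase than Scg2, the leading granule gene. Mlxipl (ChREBP), a glucose-responsive factor, was the highest at 96.9 ± 49.4 CPM per kilobase. The levels of Pdx1, which maintains beta cells and binds the insulin promoter, were 35.9, 84.1, 47.7 and 61.8 CPM. The levels of Nkx6-1 were 58.6, 119, 90.1 and 151 CPM, and WT4 was the highest library. The levels of Mafa, an activator of insulin genes in adult beta cells, were 13.0, 34.0, 29.97 and 30.8 CPM. Mafa was lowest in WT1. Of 43 factors on the list, 27 had a mean of 10 or more CPM. Among those below was Hhex, a factor of delta cells, at 3.78, 7.71, 4.66 and 8.81 CPM.

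The genes that couple glucose to secretion include enzyme and transporter isoforms that differ in affinity for glucose. Hexokinase 1 (Hk1), an enzyme of higher glucose affinity that beta cells keep low, had levels of 4.12, 12.2, 7.85 and 10.8 CPM. It was lowest in WT1 and highest in WT2. GLUT1 (Slc2a1) stood at 2.96 ± 0.723 CPM per kilobase, against 75.7 ± 25.7 for Slc2a2. Of 24 genes on this list, 14 had a mean of 10 or more CPM.

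The channel genes of beta-cell excitability were led by Abcc8, the sulfonylurea receptor of the ATP-sensitive potassium channel, with levels of 375, 1042, 698 and 939.6 CPM. Its pore partner Kcnj11 had levels of 43.3, 113, 61.4 and 96.2 CPM, and per kilobase of the longest transcript was 0.161 ± 0.0183 times as high as Abcc8. The voltage-gated calcium channel genes Cacna1d and Cacna1c had levels of 115, 282, 145 and 237 and of 66.8, 184, 131 and 158 CPM. Of the 23 channel genes with a mean of 10 or more CPM, 20 were highest in WT2, against 56.2% of all genes. With acinar genes out of the total, 15 of the 23 were still highest in WT2, against 20.3% of all genes.

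Of the exocytosis machinery, Syt13 had the highest level per kilobase, 144 ± 49.998 CPM per kilobase, with levels of 292, 736, 527 and 617 CPM. The SNARE proteins that fuse granules with the membrane were represented by Vamp2, with levels of 134, 334, 207 and 280.4 CPM, and by Snap25, with levels of 80.3, 164, 122 and 120.3. Stx1a, a syntaxin of the same complex, was lower, at 1.19, 4.44, 2.95 and 4.25 CPM. The median CV of the 25 members with a mean of 10 or more fell from 0.328 to 0.110 with acinar genes out of the total.

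Among the 36 receptor genes, the prolactin receptor gene Prlr had the highest level per kilobase, 77.8 ± 42.6 CPM per kilobase. Its levels were 457, 544, 693 and 1386 CPM, so WT4 stood above the other 3 libraries, and it was also the least even beta-cell identity gene, with a CV of 0.548. With acinar genes out of the total its levels were 932, 565, 952 and 1533 CPM and WT4 was again the highest. The incretin receptor genes Glp1r and Gipr had levels of 70.2, 177, 131 and 208 and of 10.2, 27.9, 19.7 and 26.4 CPM. The fatty acid receptor gene Ffar1 had levels of 9.04, 25.6, 18.9 and 20.6 CPM. The glucagon receptor gene Gcgr stood at 5.09, 16.1, 13.6 and 16.0 CPM. In all, 17 receptor genes had a mean of 10 or more CPM.

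Of 31 genes on the list of those that mature beta cells keep low (disallowed genes), 9 had a mean of 10 or more CPM. This was a share close to that of all genes, of which 7308 of 24466 did. Lactate dehydrogenase A (Ldha) had levels of 5.22, 3.91, 6.84 and 4.12 CPM, and the monocarboxylate transporter gene Slc16a1 had levels of 1.27, 0.625, 0.590 and 1.05. The factor Rest, a repressor of neuronal genes, had levels of 5.26, 6.53, 5.13 and 6.84 CPM. The highest of the list per kilobase was the circadian repressor Nr1d1, at 40.1 ± 22.4 CPM per kilobase, with levels of 67.6, 195, 63.1 and 111 CPM. These genes are also expressed in non-endocrine cells, whose part in the values was not tested.

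Of the 15 genes on the alpha-cell list, 11 had a mean of 10 or more CPM, and so did 6 of 13 genes listed for the rarer endocrine cells (delta, PP, epsilon). Ttr, the transthyretin gene, had levels of 347, 772, 555 and 705 CPM and a CV of 0.0540 with acinar genes out of the total. Slc38a5, an amino acid transporter gene on the alpha-cell list, had levels of 34.6, 6.60, 24.1 and 10.8 CPM. It was the 1 alpha-cell gene of 11 that was highest in WT1 and lowest in WT2, the order of the acinar genes. Peptide YY (Pyy), made in PP cells and others, had levels of 161, 291, 204 and 292 CPM. Ghrelin (Ghrl), the hormone of epsilon cells, was near its limit of detection, at 0.340, 1.32, 0.295 and 0.308 CPM.

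**Figure D4:**
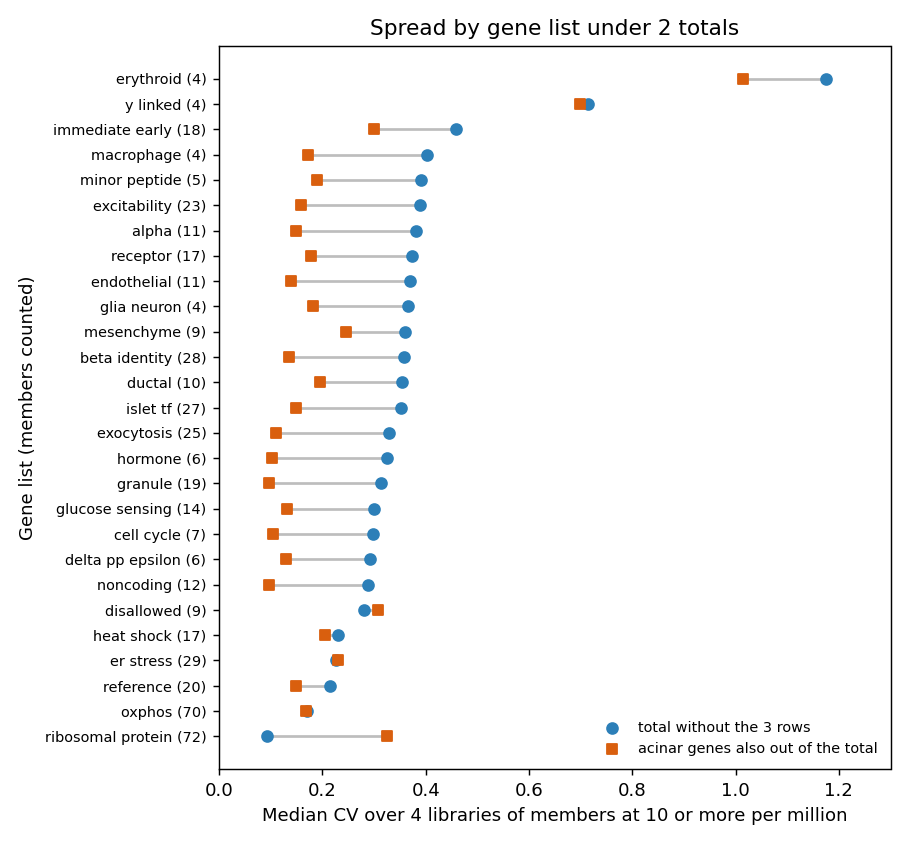
Median CV over the 4 libraries of each gene list, for members with a mean of 10 or more CPM (number in brackets), with acinar genes in the total (circles) and out of it (squares). Islet lists move left, from between 0.292 and 0.391 to below 0.2, and the ribosomal protein list moves right, from 0.0919 to 0.325.

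Markers of other cell types were present at levels that differed by gene. The endothelial genes Kdr, Pecam1 and Cdh5 had levels of 55.7, 163, 79.3 and 112, of 45.0, 87.4, 60.0 and 86.2 and of 22.2, 42.5, 30.7 and 43.8 CPM. The 18 endothelial genes summed to 637, 798, 629.7 and 712 CPM with acinar genes out of the total. The pericyte gene Rgs5 had levels of 163, 297, 208 and 257 CPM, and the fibroblast collagen gene Col1a1 had levels of 8.32, 23.3, 7.26 and 12.7. Macrophage genes were lower, with Csf1r at 3.90, 11.5, 7.20 and 9.30 CPM and Cd74, a chaperone of antigen presentation, at 16.5, 48.1, 30.6 and 37.7.

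The lymphocyte, adipocyte and liver lists held 0 genes with a mean of 10 or more CPM. The B-cell gene Cd79a had levels of 2.42, 7.85, 2.77 and 7.51 CPM, the T-cell gene Cd3e had a mean of 0.0616 CPM, and the adipocyte genes Adipoq and Plin1 had no count in any library. The liver gene Alb had levels of 3.65, 4.37, 3.54 and 3.63 CPM, and Apoa1 had a mean of 0.191. The Schwann cell gene Sox10 had levels of 0.764, 0.694, 0.590 and 0.431 CPM. Of the 16 genes on the ductal list, 10 had a mean of 10 or more CPM. Krt19 had levels of 3.69, 3.06, 5.13 and 5.05 CPM and Cftr of 0.255, 1.04, 0.826 and 0.862. Tff2 on the same list, a trefoil peptide gene, followed the acinar order, with 478, 38.7, 292 and 109 CPM.

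Hemoglobin genes marked WT4. Hba-a1 had levels of 33.7, 41.8, 15.2 and 206 CPM, and Hbb-b1 had levels of 48.2, 40.5, 14.7 and 219. WT4 was the highest and WT3 the lowest library for each of the 4 hemoglobin genes with a mean of 10 or more CPM, under both totals. The erythroid list took 0.0159, 0.0157, 0.00616 and 0.0822% of the counts. Some hemoglobin genes are near-identical copies, and Hbb-b2 and Hbb-bt had equal values.

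Xist and the Y-linked genes also set WT4 apart. Xist, the RNA that coats the inactive X chromosome of female cells, had levels of 3.11, 10.9, 3.01 and 1289 CPM. The Y-linked gene Ddx3y had levels of 22.2, 26.2, 23.0 and 0.246 CPM, from 523, 377, 390 and 4 counts. Kdm5d and Uty had no count in WT4 and were at least 89.1-fold and 71.0-fold higher in each of the other 3 libraries, taking 3 counts in WT4 as the floor. Eif2s3y had 306, 249, 235 and 1 counts. WT4 therefore carried Xist at a high level and almost no Y-linked RNA, while WT1, WT2 and WT3 carried Y-linked RNA and little Xist. The labels give no sex to set beside this, so a difference of WT4 from the other libraries in Prlr or any other gene and this difference cannot be told apart.

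**Figure D5:**
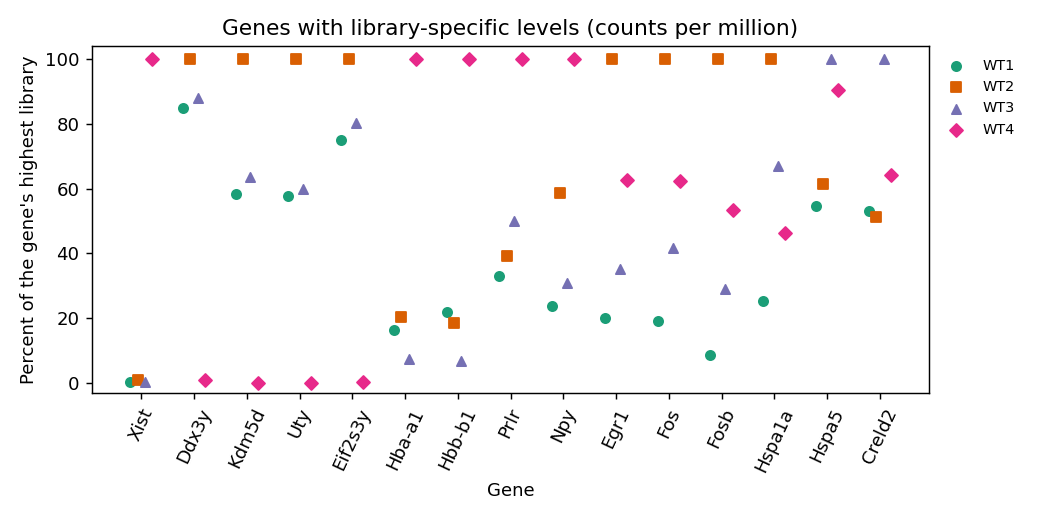
Level of 15 genes in WT1 to WT4 as a percent of the gene's highest library, on a linear axis, with acinar genes in the total. WT4 is highest for Xist, hemoglobins, Prlr and Npy and at or near 0 for Y-linked genes; WT2 is highest for Egr1, Fos and Fosb.

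Immediate early genes, which cells switch on within minutes of a stimulus, were highest in WT2. The levels of Egr1 were 170.1, 846, 298 and 529.5 CPM. The levels of Fos were 45.2, 234, 97.6 and 146 CPM, and those of Fosb 14.9, 170.0, 49.4 and 90.8, an 11.4-fold range. WT2 was followed by WT4, WT3 and WT1 for all 3 genes. Of the 18 members with a mean of 10 or more CPM, 15 were highest in WT2, against 56.2% of all genes, and 11 were still so with acinar genes out of the total, against 20.3%. On that second scale the 28 genes summed to 1497, 2569.8, 1532 and 1858 CPM. Jund, the steadiest of the leading members, had levels of 228, 433, 253 and 298. Time from dissection to lysis is not given in the sources used here, and its part in these values was not tested.

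Chaperones of the endoplasmic reticulum gave another order. Hspa5 (BiP), the main chaperone of this compartment, had levels of 827, 932, 1516 and 1369.7 CPM, with WT3 and WT4 above WT1 and WT2. Creld2, a target of the unfolded protein response, had levels of 95.4, 92.4, 179.9 and 115 CPM, and Sdf2l1 had levels of 64.4, 68.5, 130.3 and 87.8, both highest in WT3. Of the 29 members with a mean of 10 or more, 10 were highest in WT3 and 17 in WT4, against 2.53 and 39.2% of all genes; with acinar genes out of the total, 9 were highest in WT3, 7 in WT4 and 13 in WT1. The direction in WT1 rested on the total: 22 of these 29 were lowest in WT1 with acinar genes in the total, against 89.6% of all genes, and 2 with them out of it, against 19.5%. With them out, 27 of the 29 were lowest in WT2, against 33.5% of all genes. Acinar cells also express these chaperones, and the acinar share was 3.85% in WT2 and 50.9% in WT1; the part of acinar RNA in the order was not tested. Among the cytosolic heat shock genes, Hspa1a had levels of 72.1, 285, 191 and 132 CPM and a CV of 0.533, while Hspa8 had levels of 795, 1026, 1075 and 1349.5.

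Ribosomal protein genes were the steadiest group with acinar genes in the total. The 77 genes took 1.05, 1.08, 1.03 and 1.07% of the counts. Rpl13a, whose introns hold the small nucleolar RNAs that the series targets, had levels of 181, 189, 187 and 192 CPM and a CV of 0.0248. Rpl4 had levels of 706, 723, 696 and 739 CPM and a CV of 0.0268. The median CV of the 72 members with a mean of 10 or more was 0.0919, and it rose to 0.325 with acinar genes out of the total. All 72 were then highest in WT1, against 48.2% of all genes, and Rpl13a stood at 369, 197, 257 and 213 CPM. Ribosomal protein genes and islet genes thus did not keep a constant ratio over the 4 libraries, under either total.

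The choice of total decided which genes looked stable. Of 857 genes outside the acinar list with a mean of 100 or more CPM, the 100 of lowest CV included 35 of the 38 ribosomal protein genes with acinar genes in the total and 0 of them with acinar genes out of it. The 100 steadiest genes under one total and the 100 steadiest under the other had 0 genes in common. The totals differ by a factor that varies between libraries, so a gene nearly constant under the first must vary under the second. The lack of shared genes follows from this scaling and is not a separate result about the genes. Actb, a common reference gene for quantitative PCR, had levels of 559, 1090.0, 803 and 1119 CPM, with a CV of 0.296 in the first scaling and 0.0511 in the second. Gapdh, another, had levels of 11.3, 19.2, 15.6 and 21.7 CPM, with CVs of 0.268 and 0.0804. The 70 nuclear genes of oxidative phosphorylation with a mean of 10 or more had a median CV of 0.171 and 0.168.

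Of the 26 cell division genes on the list, 7 had a mean of 10 or more CPM, and Ccnd2 had the highest level in counts. This gene, the main cyclin of beta-cell proliferation in mice, had levels of 1195, 2445, 1654 and 2165 CPM and a CV of 0.0465 with acinar genes out of the total. Mki67, a marker of dividing cells, had levels of 21.7, 33.3, 48.1 and 45.6 CPM, and Top2a had levels of 5.26, 8.82, 12.7 and 12.3, both lowest in WT1 under the first total. Among the other noncoding RNAs, the imprinted Meg3 had levels of 944, 2378, 1239.6 and 1627 CPM and Neat1 of 257, 516, 359 and 406. Rpph1, the RNA part of ribonuclease P, had levels of 421, 845, 571 and 678 CPM.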

How the data were processed

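RNA sequencing of hand-picked islets from 4 wild-type mice was described. The deposited table holds estimated counts per gene made by the authors, with 11.3 to 11.9% of values in a library not whole within 0.01. A second deposited table holds RPM, scaled by the authors to totals of 47.3 to 67.5 M, and served as an alternative scaling. The submitters' processing notes name STAR 2.4.1, Partek and mm9; no source used here gives their roles, the annotation or the strand. Wild-type columns were matched to samples by title.

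Levels are counts per 1000000 of the total without Rn45s, Lars2 and Mir6236. Each library gave a value, and mean, SD and CV (n = 4) describe 1 group, so no test between groups was made; Dixon's criterion marked single libraries that stood apart. Transcript lengths came from GENCODE M21 (GRCm38), matched by symbol for 98.5% of genes. The ratio of the insulin genes used median protein-coding lengths as planned; other levels per kilobase used the longest, chosen after median lengths proved short for some genes (Abcc8: 630 against 4877 bases). No mm9 annotation was used, and coordinates are RefSeq GRCm38.p6.

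The members and 31 gene lists were chosen with earlier results of these data known. Genes named by rule are the 3 rows left out of totals, the hormones, the 20 of highest mean share, per list the 3 highest per kilobase and those of highest and lowest CV, the 10 highest and 10 lowest CVs at 100 or more CPM, Xist, Y-linked genes and cell type markers. Other list members named were chosen after their values were seen. Some genes that the rule names are not reported here. Alternatives were other totals, TMM scaling (edgeR 4.0.16, R 4.3.3), the authors' RPM, level minimums, transcript lengths and each library left out. Calculations used Python 3.11.15 with pandas 2.3.3 and were tested on simulated data. No pair of libraries was a copy: chi-square per degree of freedom was 44.7 or more. Amplified reads carry no molecular identifiers, and limits from counts cover counting error only.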

Additional observations from a re-analysis of the deposited data

Results flagged for a closer look

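In 213 comparisons of 4 libraries, 19 had 1 library farther from the other 3 than Dixon's 95% critical value allows; chance gives about 1 in 20 for groups not chosen by their values. Many of these genes were named for a high or low CV over the same libraries, so that rate is not a yardstick here, and the hemoglobin genes and the erythroid list they make up are not separate cases. Of the 19, 9 concerned WT4, 5 WT1, 4 WT2 and 1 WT3. All values are with acinar genes in the total. In WT4, Xist stood at 1289 CPM and Ddx3y at 0.246 CPM, beside the values of the other libraries given above. Hemoglobin genes were high in WT4: Hba-a1 at 206 CPM, Hba-a2 at 235 CPM, Hbb-b1 at 219 CPM and Hbb-bs at 118 CPM. The erythroid list took 0.0822% and the adipocyte list 0.00168% of the counts in WT4, the latter mostly from Fabp4 and Pparg. Rn45s took 38.9% of the assigned counts in WT4, against 36.7 to 37.0% elsewhere.

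In WT1, Reg1 stood at 1833 CPM, and lower than elsewhere were Hsp90b1, an endoplasmic reticulum chaperone, at 756 CPM, Etv1, a transcription factor, at 28.2 CPM, Syt4, a synaptotagmin, at 64.3 CPM, and Sep15 at 101 CPM. In WT2, Bhlha15 was lower than elsewhere at 33.3 CPM, Ghrl was higher at 1.32 CPM, Alb was higher at 4.37 CPM, and Mir6236 took 0.0746% of the assigned counts against 0.0994 to 0.1003%. In WT3, Rpsa, a ribosomal protein gene, stood at 299 CPM against 278 to 279.5 in the others. Sep15 and Rpsa stood out on a range that was small beside their level: both were among the 10 steadiest genes at 100 or more CPM. Ghrl rested on 8, 19, 5 and 5 counts in WT1 to WT4. Alb rested on 86, 63, 60 and 59 counts, and the spread of Alb and of Sep15 was no larger than counting error gives.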

How the results depend on the processing

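Of 105 alternatives over 18 results, 92 moved a value by less than 1 SD of the libraries, or a count by less than 1.5 times. Leaving out 1 library of 4 cannot move a mean by 1 SD. The 36 alternatives of this kind on gene means could therefore only count as unmoved. The same holds for the hormone share, the acinar share and the insulin ratio with 1 library left out, so the 92 do not measure robustness. With Rn45s, Lars2 and Mir6236 kept in the total, the hormone share was 18.5% and 3 genes held 50% of the counts; with acinar genes out of the total 58 genes did. The Ins2 to Ins1 ratio was 3.13 with the longest transcripts and 2.70 without length correction. The median CV of genes at 10 or more CPM, 0.275 over 7308 genes, was 0.134 with acinar genes out of the total and 0.123 under TMM scaling. It ranged from 0.177 to 0.312 with 1 library left out, the lowest without WT1. The median CV of beta-cell identity genes was 0.136 with acinar genes out of the total and 0.156 under TMM, and ranged from 0.227 without WT1 to 0.420 without WT3. That of ribosomal protein genes was 0.325 with acinar genes out of the total and 0.269 under TMM, and ranged from 0.0702 to 0.0994 with 1 library left out. Without WT1 the acinar share was 13.6%, a change of over 1.5 times. Without WT4 the mean level of Xist was 5.69 CPM. The cause of these shifts was not tested. No paired analysis was possible because 1 group was described. With 4 mice an SD is imprecise, and genes under 1 CPM, with fewer than 23.6 counts in a library, are limited by counting error.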

Other observations

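Outside the acinar list, and with acinar genes out of the total, the least even genes at a mean of 100 or more CPM after Xist were Dmbt1, Gatm, Casp9, Nupr1, Tff2, Pdia2 and Cckar. Dmbt1, a secreted scavenger receptor gene, had levels of 8154, 573, 4659 and 1563 CPM in WT1 to WT4 with acinar genes in the total. Pdia2, a protein disulfide isomerase gene of the pancreas, had levels of 369.6, 33.3, 218 and 87.1 CPM, and the cholecystokinin receptor gene Cckar had levels of 223, 21.1, 121 and 62.5. All 3 followed the acinar order. Casp9, a caspase gene, had levels of 375, 46.8, 174 and 102 CPM in the same order; in RefSeq GRCm38.p6 its span on chromosome 4 shares 1025 bases with that of the acinar elastase gene Cela2a, so its counts are uncertain.

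The metallothionein genes, whose products bind zinc, followed yet another order. Mt1 had levels of 521, 416, 172 and 410.5 CPM and Mt2 of 393, 287, 102 and 295, both lowest in WT3. At the other end, the genes of lowest CV with acinar genes out of the total were Tcf20, with levels of 141, 271, 207 and 254 CPM in the first scaling and a CV of 0.00864 in the second, Dag1, with a CV of 0.0133, and Ano6, with a CV of 0.0135.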
